A study of Mus musculus with 12 samples.

Results

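The genes described here encode 10 subunits of protein phosphatase 2A (PP2A), among 55228 gene symbols measured by bulk RNA sequencing in mouse regulatory T cells (Tregs). They comprise the catalytic C subunits Ppp2ca and Ppp2cb, the scaffold A subunits Ppp2r1a and Ppp2r1b, the B55 regulatory subunits Ppp2r2a and Ppp2r2d, and the B56 regulatory subunits Ppp2r5a, Ppp2r5c, Ppp2r5d and Ppp2r5e. The family was selected because the measured level of Ppp2r5c was lower in 3A10t than in EV no IL-2 Tregs. The values of all members in that contrast, and those of Ppp2r5c in every contrast with 3A10t, are therefore given as a description without a test. All 10 members had a mean level of at least 1 TPM, a transcript abundance corrected for length and library total, over the 12 libraries, the limit for testing, which 15043 genes met.

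PP2A is a serine/threonine phosphatase that works as a trimer. The A subunit is a curved scaffold, the C subunit removes the phosphate, and an interchangeable B subunit directs the enzyme to its substrates and to places in the cell. In Tregs PP2A is known to restrain the mTORC1 kinase complex, and B55 and B56 enzymes act on mitotic proteins, on AKT and on other substrates of growth signaling.

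Lymph node CD4+ cells of 16 NOD.Foxp3-GFP mice were combined, divided into 3 parts and sorted for Foxp3.GFP+CD25+ Tregs on separate machines, so each of the 3 replicates of a group is a culture from the same mice and p-values measure the spread between cultures. The cells were transduced on day 2 with a retroviral vector carrying a Thy1.1 reporter, and on day 9 the Thy1.1+ cells were purified for RNA. The 4 groups were empty vector (EV) cells washed free of IL-2 on day 4 (EV no IL-2), EV cells kept in IL-2 (EV+IL-2), and cells washed on day 4 that carried 1G12t or 3A10t, in which an orthogonal IL-2 variant (1G12 or 3A10) is joined by a CD25-derived linker to an orthogonal IL-2 receptor β chain. All groups thus shared the Foxp3-GFP allele, activation and transduction, the construct was expressed from a viral promoter rather than the cells' own loci, and the age of the mice was not given in the labels.

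Because of the length correction the levels of different genes can be compared, but TPM hold no read depth, and the spread between libraries is the only error here. The values below are TPM divided by a size factor for each library, which ran from 0.854 to 1.09. The libraries listed between 30393 and 43285 genes above 0. Il2 was at most 0.491 TPM in the 6 EV libraries and at least 12.9 TPM in the 6 tethered libraries. Cd3e was between 344 and 405 TPM in all 12. Foxp3, the lineage-defining factor of Tregs, was between 484 and 510 TPM in the 9 libraries of the other groups and at 463, 369 and 391 TPM in 3A10t, lower than in EV+IL-2 by limma (log2 fold change -0.31, adjusted p 0.019), and its part in the members' levels was not tested. Of the 11 markers of B cells, myeloid cells and CD8 T cells, Ms4a1, Lyz2, S100a8, S100a9 and Cd8a stayed under 1 TPM in every library, Cd79a reached 2.22, Csf1r 1.72, Cd79b 13.3, Cd74 14 and Cd8b1 5.74 TPM, and Cst3, which many cells express, was at 440 to 762 TPM. The summed B cell list was 14.4 to 17.8 TPM in the EV libraries, 14.2 to 26.9 in 1G12t and 20.9 to 27.2 in 3A10t, and the part of other cells in the results below was not tested. In bulk RNA, fewer cells of a type and less RNA per cell cannot be told apart.

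The promoters of Ppp2ca, Ppp2r2d, Ppp2r5a and Ppp2r5c are shown. The first 3 of these genes moved together across the libraries. Ppp2r5c, for which the family was selected, followed them less, with a Pearson r of 0.42 with Ppp2ca. Sequences are from RefSeq on the GRCm38.p6 build, from 250 bases before to 50 bases after the annotated start, and 7 of the 10 members had an entry. Capitals mark a GC box, the letters GGGCGG or CCGCCC.
Ppp2ca, chr11:52098574-52098873, plus strand: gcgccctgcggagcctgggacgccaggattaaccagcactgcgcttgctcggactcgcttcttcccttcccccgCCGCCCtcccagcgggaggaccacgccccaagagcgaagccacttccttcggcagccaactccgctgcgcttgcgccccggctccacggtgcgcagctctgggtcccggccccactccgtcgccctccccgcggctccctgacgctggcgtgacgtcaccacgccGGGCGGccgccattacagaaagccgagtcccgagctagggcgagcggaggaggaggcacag
Ppp2r2d, chr7:138846109-138846408, plus strand: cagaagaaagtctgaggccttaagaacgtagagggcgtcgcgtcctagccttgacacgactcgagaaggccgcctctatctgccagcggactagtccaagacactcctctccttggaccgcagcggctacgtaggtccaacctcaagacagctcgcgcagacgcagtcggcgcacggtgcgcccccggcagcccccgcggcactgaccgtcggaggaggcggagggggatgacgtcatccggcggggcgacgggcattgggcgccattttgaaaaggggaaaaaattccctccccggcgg
Ppp2r5a, chr1:191396992-191397291, minus strand: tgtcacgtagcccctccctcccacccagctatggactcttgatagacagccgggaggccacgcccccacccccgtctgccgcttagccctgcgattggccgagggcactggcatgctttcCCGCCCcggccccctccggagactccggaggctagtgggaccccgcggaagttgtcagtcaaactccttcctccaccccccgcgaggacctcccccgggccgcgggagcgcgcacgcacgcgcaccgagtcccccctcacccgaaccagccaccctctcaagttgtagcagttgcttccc
Ppp2r5c, chr12:110485547-110485846, plus strand: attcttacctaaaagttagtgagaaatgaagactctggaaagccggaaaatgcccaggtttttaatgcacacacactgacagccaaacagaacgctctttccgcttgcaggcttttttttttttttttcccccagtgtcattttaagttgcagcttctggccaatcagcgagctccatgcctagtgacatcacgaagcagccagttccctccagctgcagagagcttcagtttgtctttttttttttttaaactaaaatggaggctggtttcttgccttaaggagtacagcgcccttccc
The Ppp2ca promoter had 71.7% G or C, Ppp2r5a 69.0% and Ppp2r2d 64.3%, against a median of 52.7% over 32851 promoters in the table. The Ppp2r5c promoter shown had 44.3%. Of those shown, Ppp2r2d and Ppp2r5c had 2 entries each, and the entry nearest the start of the transcript used here was taken. The sequences shown for Ppp2r2d, Ppp2r5a and Ppp2r5c all lie inside the annotated ranges of their genes. The range of Ppp2r5c starts at 110447120. The sequence shown for Ppp2ca begins before the range of its gene. The other entries of Ppp2r2d and Ppp2r5c are not described. A GC box on either strand was present in 5 of the 7 member promoters and in 35.7% of all promoters. The letters TTCNNNGAA, a STAT-type motif, were in 0 of the 7 and in 8.30% of all promoters; these matches describe letters only.

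The 10 subunit mRNAs spanned a wide range of levels, and each class had a major and a minor member. In EV no IL-2 cells, Ppp2r1a was at 193 ± 7.64 TPM and Ppp2r5c at 192 ± 10.4 TPM (SD, n = 3 here and below). Ppp2r2a followed at 95.9 ± 4.54 TPM. Ppp2r5a at 77.1 ± 12.9, Ppp2r5d at 74.0 ± 2.17 and Ppp2ca at 71.0 ± 4.61 TPM lay within their spread of each other. Ppp2r1b was at 55.1 ± 2.39 TPM and Ppp2r2d at 26.7 ± 4.89 TPM. The lowest members were Ppp2r5e, at 8.14 ± 0.815 TPM, and Ppp2cb, at 5.78 ± 0.924 TPM.

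The pool of members' mRNA in EV no IL-2 cells was 31.1% ± 0.449 scaffold, 9.61% ± 0.515 catalytic, 15.4% ± 0.573 B55 and 43.9% ± 0.324 B56. The B56 share was 40.3% ± 1.69 in 3A10t, 45.5% ± 1.4 in 1G12t and 42.9% ± 1.22 in EV+IL-2. Ppp2r5c made up 54.6% ± 2.63 of the B56 mRNA in EV no IL-2, 49.5% ± 6.29 in 3A10t, and 54.5% ± 5.17 and 54.4% ± 4.6 in 1G12t and EV+IL-2. Ppp2ca made up between 76.7% and 94.0% of the catalytic mRNA in the 12 libraries. The catalytic share ran from 3.77% in 3A10t replicate 2 to 12.2% in 3A10t replicate 3, and the scaffold share from 29.8% in 1G12t replicate 3 to 40.2% in 3A10t replicate 2. These shares were not tested.

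**Figure D1:**
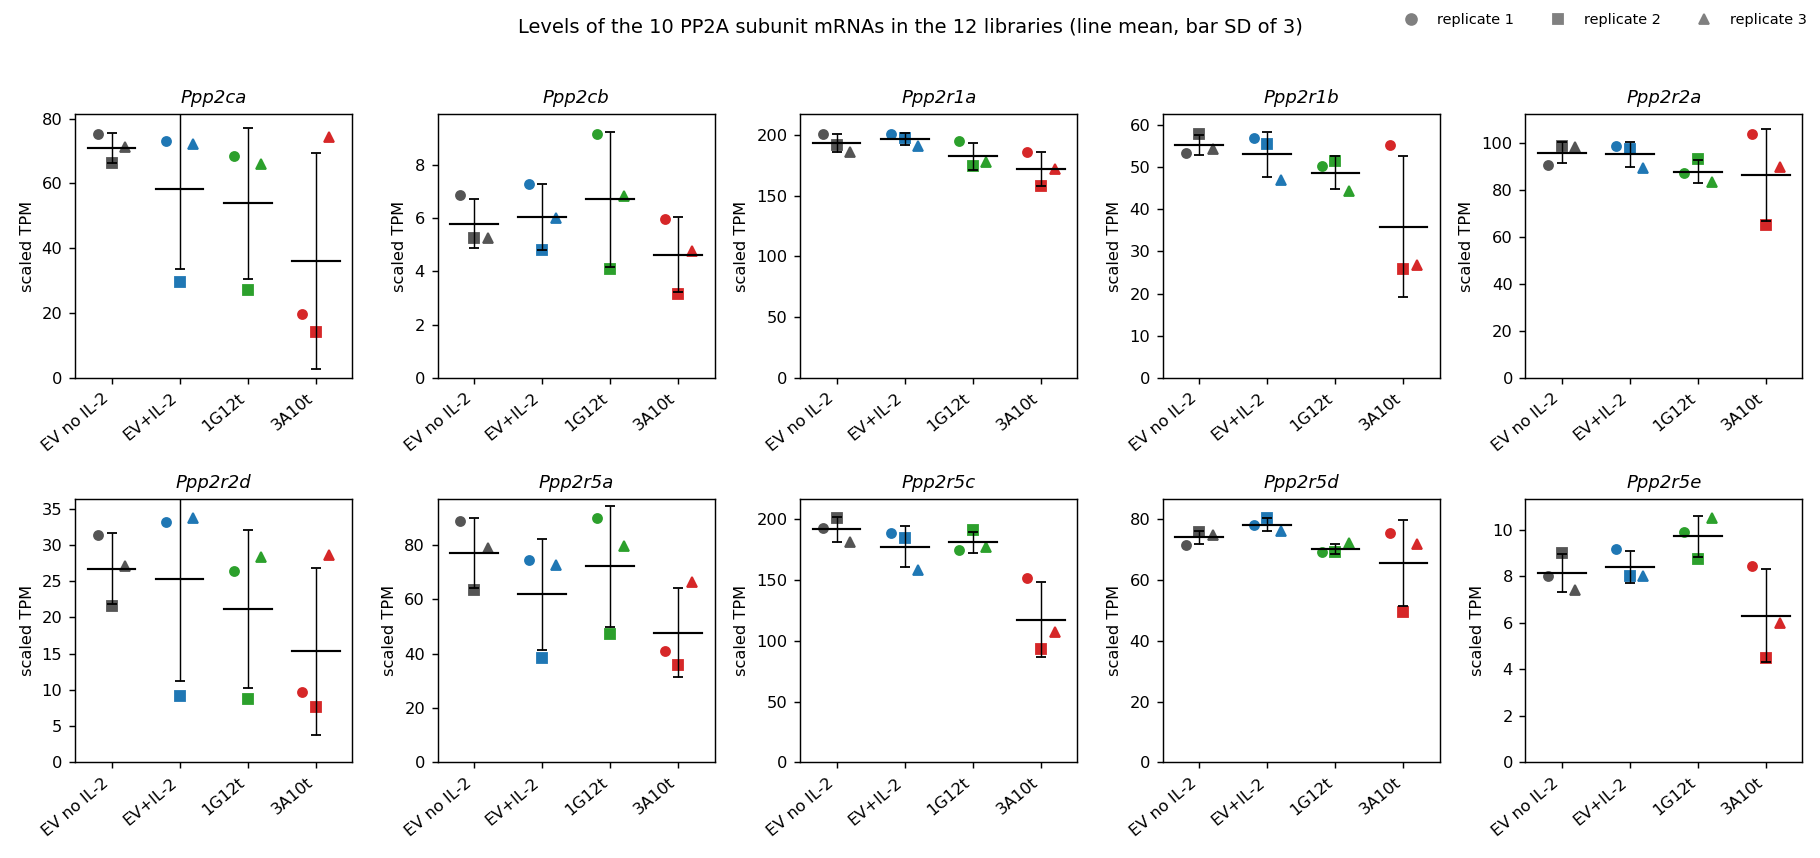
Scaled TPM (linear axis from 0) of the 10 PP2A subunit genes in each library, by group, with marker shapes for replicate number, a line at the mean and a bar for the SD of 3. Ppp2ca, Ppp2r2d and Ppp2r5a split within groups, whereas for Ppp2r5c the 3 libraries of 3A10t, from 93.5 to 152 TPM, lay below the other 9, from 158 to 201 TPM.

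**Figure D2:**
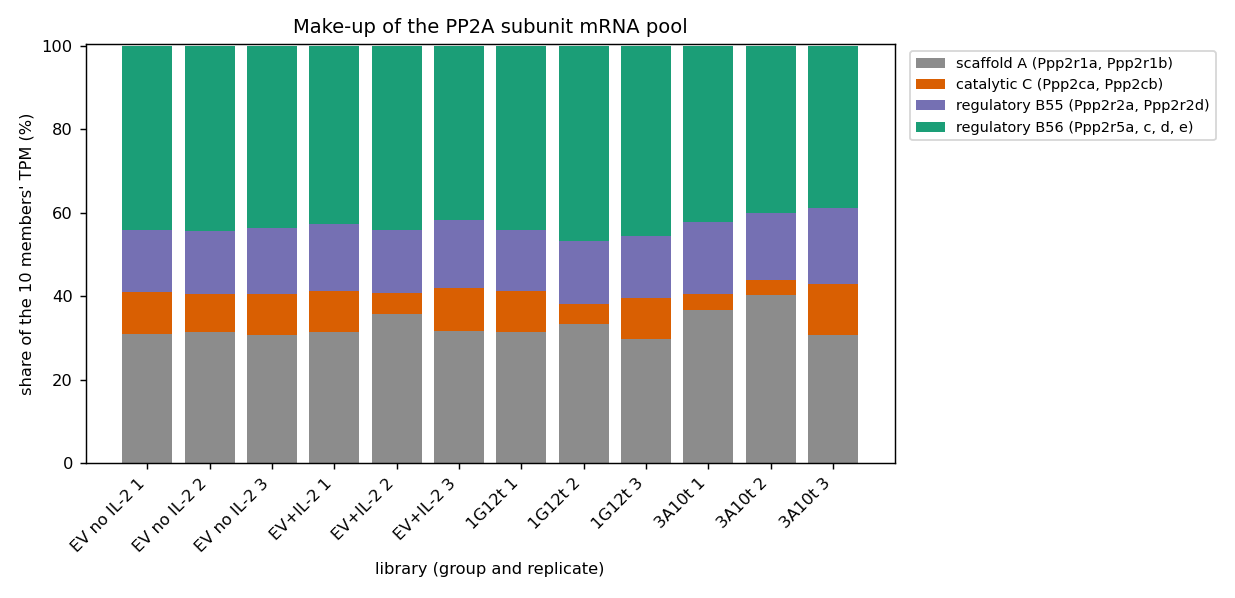
Share of the 10 members' summed TPM (percent) that each subunit class took in each of the 12 libraries. The catalytic share (orange) was between 3.77% and 4.89% in EV+IL-2 replicate 2, 1G12t replicate 2 and 3A10t replicates 1 and 2, and between 9.03% and 12.2% in the other libraries.

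IL-2 in the medium was compared with its removal in EV cells. None of the 10 members passed the test (limma, Benjamini-Hochberg adjusted p under 0.05), and 0 of 10 had an unadjusted p under 0.05. Over all genes tested, 13.3% were called and 26.3% had an unadjusted p under 0.05. At the cut used in the study's methods, an unadjusted p under 0.01 with a log2 fold change beyond 0.25, 0 of 10 members and 15.1% of all genes were called. The members' median log2 fold change was -0.04, beside -0.014 over all genes. Fold changes are differences in log2(scaled TPM + 1), which understates the change of low genes.

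The scaffold Ppp2r1a gave the narrowest interval. It was at 201, 192 and 186 TPM in EV no IL-2 replicates 1 to 3 and at 201, 197 and 191 TPM in EV+IL-2. Its log2 fold change was 0.02, with a 95% interval from -0.15 to 0.20 and an adjusted p of 0.91. The other scaffold, Ppp2r1b, differed by -0.06, with an interval from -0.57 to 0.45.

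The catalytic Ppp2ca was at 75.4, 66.2 and 71.4 TPM in EV no IL-2 and at 73.1, 29.7 and 72.3 TPM in EV+IL-2. A single EV+IL-2 library, replicate 2, was low, and the other 2 lay within the EV no IL-2 range. The log2 fold change was -0.39 with an SE of 0.57 and an adjusted p of 0.76, and without that library it was 0.04. The interval, from -1.65 to 0.88, leaves room for a large change in either direction. Ppp2cb, the minor catalytic gene, was between 5.25 and 6.85 TPM in EV no IL-2 and between 4.80 and 7.27 TPM in EV+IL-2.

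Of the B subunits, Ppp2r5d, a B56 subunit, had its 3 EV+IL-2 libraries above its 3 EV no IL-2 libraries. The share of all genes separated in this way is not given, and nothing is read from it. It was at 71.5, 75.6 and 74.8 TPM in EV no IL-2 and at 78.2, 80.3 and 76.0 TPM in EV+IL-2, a log2 fold change of 0.08 with an adjusted p of 0.79. Ppp2r5c was at 193, 201 and 181 TPM in EV no IL-2 and at 189, 185 and 158 TPM in EV+IL-2. The groups overlapped, and its log2 fold change was -0.12 with an interval from -0.45 to 0.22 and an adjusted p of 0.71. Ppp2r2a differed by -0.01, from -0.32 to 0.30, and Ppp2r5e by 0.04, from -0.33 to 0.41.

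The 1G12t construct was compared with EV no IL-2, which had the same medium. None of the 10 members was called by limma, 0 of 10 had an unadjusted p under 0.05, and 0 of 10 met the study's cut. Few genes were called at all, 0.0199% by adjusted p, 7.04% by an unadjusted p under 0.05 and 1.36% by the study's cut, so the members' count sits on a low background. The members' median log2 fold change was -0.10, beside -0.004 over all genes, and single members ran from -0.50 for Ppp2ca to 0.23 for Ppp2r5e. This comparison shares the EV no IL-2 libraries with the one above.

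Ppp2r5c was at 175, 191 and 177 TPM in 1G12t, within or just under its EV no IL-2 values. Its log2 fold change was -0.08 with an interval from -0.41 to 0.25 and an adjusted p of 0.90. Ppp2r1b was at 50.3, 51.5 and 44.2 TPM in 1G12t, each below its EV no IL-2 values of 53.4, 57.9 and 54.2 TPM. Here too the share of all genes separated in this way is not given, and nothing is read from it. Its difference of -0.18 had an adjusted p of 0.85.

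1G12t was also compared with EV+IL-2. By limma 0 of 10 members were called, against 20.6% of all genes, and 0 of 10 had an unadjusted p under 0.05, against 33.2%. The study's cut gave 0 of 10 members and 20.3% of all genes. The largest difference was that of Ppp2r5a, a B56 subunit, at 0.23, with an interval from -0.48 to 0.93 and an adjusted p of 0.67. Ppp2r5d, at 69.3, 69.2 and 72.0 TPM in 1G12t, was below EV+IL-2 in all 3 libraries. Again the share of all genes separated in this way is not given, and nothing is read from it. The log2 fold change of Ppp2r5d was -0.15 with an adjusted p of 0.46. With only the 6 libraries compared in the fit, the same difference had an adjusted p of 0.036, where 22.8% of all genes were called.

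**Figure D3:**
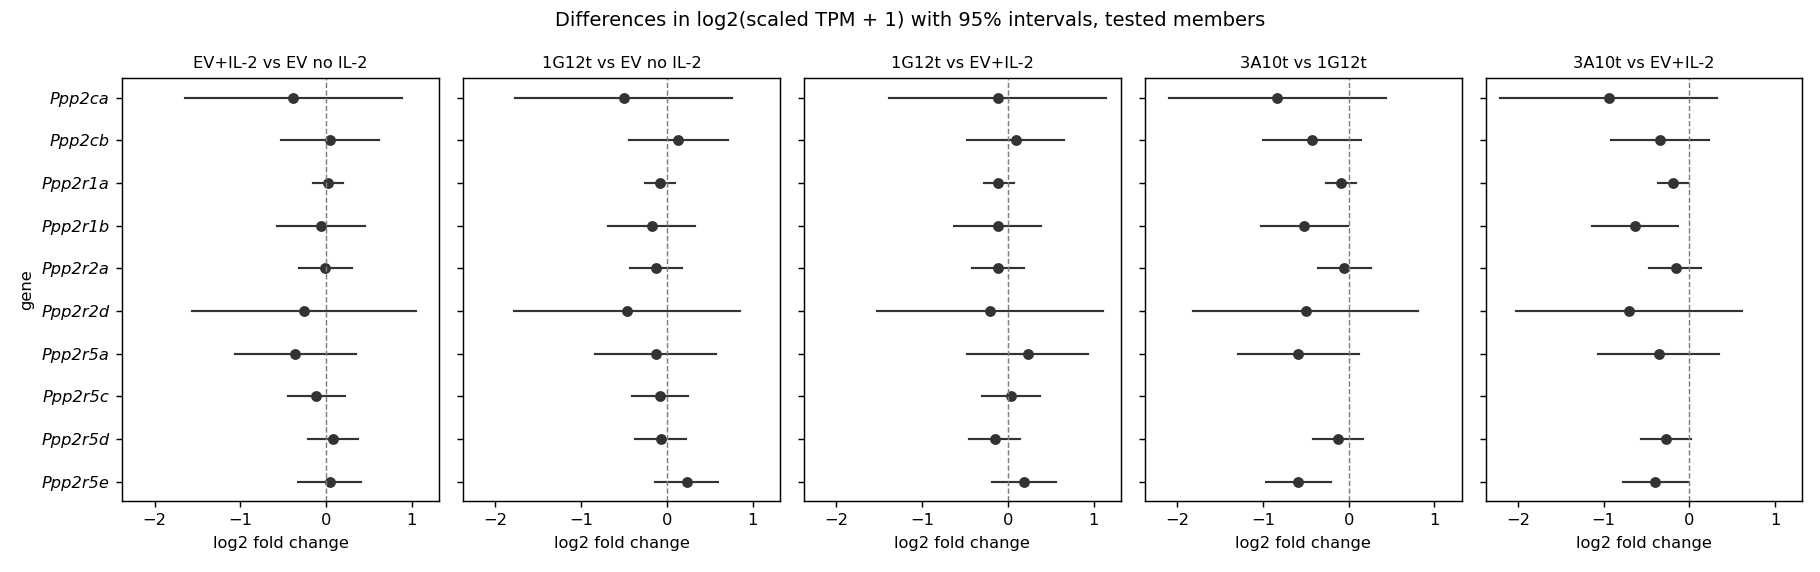
Log2 fold change (point) and 95% interval (bar) of each tested member in 5 comparisons, in log2(scaled TPM + 1), with Ppp2r5c left out of the panels with 3A10t because it was chosen on those libraries. The intervals of Ppp2ca and Ppp2r2d were the widest in each panel and that of Ppp2r1a the narrowest.

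Ppp2ca, Ppp2r2d and Ppp2r5a varied together across the 12 libraries, and the variation cut across the groups. Ppp2ca was at 68.5, 27.1 and 65.9 TPM in 1G12t and at 19.6, 14.1 and 74.3 TPM in 3A10t. It was thus under 30 TPM in 4 libraries, EV+IL-2 replicate 2, 1G12t replicate 2 and 3A10t replicates 1 and 2, and at 65.9 to 75.4 TPM in the other 8. Ppp2r2d, a B55 subunit, was between 7.63 and 9.76 TPM in those 4 libraries and between 21.6 and 33.7 TPM in the other 8. Ppp2r5a, a B56 subunit, was between 35.7 and 47.1 TPM in those 4 and between 63.3 and 89.9 TPM in the other 8. These members thus formed low and high libraries that did not overlap, and 3A10t replicate 3 was among the high ones. The 4 libraries were picked by their Ppp2ca values after these were seen, so they are described and not tested as a group.

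The Pearson r over the 12 libraries was 0.96 between Ppp2ca and Ppp2r2d, 0.93 between Ppp2ca and Ppp2r5a and 0.94 between Ppp2r2d and Ppp2r5a, with groups and sorts shared among the points. The other catalytic gene, Ppp2cb, had an r of 0.65 with Ppp2ca. The 5 genes most like Ppp2ca, among genes with a mean of at least 5 TPM, were Prkaca (r 0.995), a catalytic subunit of protein kinase A, Yrdc (0.994), Rac1 (0.992), a small GTPase, Bod1 (0.991), an inhibitor of PP2A-B56 at kinetochores, and Btbd1 (0.988). Rac1 fell from 311 to 398 TPM in the 8 libraries to 80.0 to 182 TPM in the 4.

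**Figure D4:**
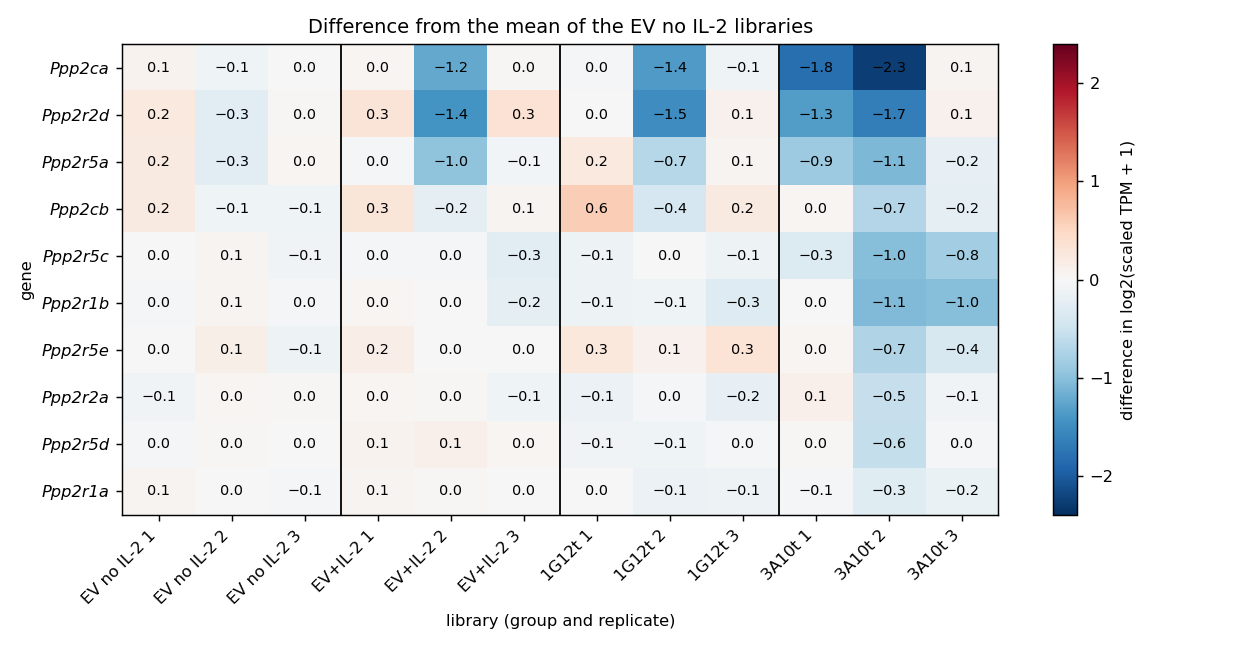
Difference of each library from the mean of the EV no IL-2 libraries, in log2(scaled TPM + 1), for the 10 members (rows) in the 12 libraries (columns). Ppp2ca lay 1.23 to 2.25 below in 4 libraries of 3 groups, with Ppp2r2d and Ppp2r5a, while Ppp2r5c and Ppp2r1b lay 0.84 to 1.06 below in 3A10t replicates 2 and 3.

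Replicate 2, one of the 3 separately sorted parts, had the lowest Ppp2ca, Ppp2r2d and Ppp2r5a of its group in all 4 groups, EV no IL-2 included. Of all genes tested, 2.94% were lowest in replicate 2 in all 4 groups, 4.07% in replicate 1 and 2.16% in replicate 3. By a gap of over 0.5 on the log2 scale, 67 of 15043 genes were lower in each of the 4 libraries than in each of the other 8, and 0 genes were higher. Ppp2ca and Ppp2r2d were among the 67, as was Bod1, and Ppp2r5a was not.

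The sequence composition of the 67 genes, which were picked by these libraries, is given as a description. The GC-richest 100-base window of the transcript had a median of 85.0% G or C in the 63 protein-coding genes among the 67, and 72.0% over 11040 protein-coding genes tested. This value was 83.0% in Ppp2ca, 87.0% in Ppp2r2d and 88.0% in Ppp2r5a, each in the 5′ untranslated region. It was 67% in Ppp2r5c. Ppp2cb (90.0%) and Ppp2r5e (83.0%) had windows as rich. Their values in the libraries low in Ppp2ca overlapped those in the rest. Ppp2cb was at 3.15 to 5.97 TPM in the low libraries and at 4.76 to 9.17 TPM in the rest. Its r was 0.65 with Ppp2ca, 0.68 with Ppp2r2d and 0.75 with Ppp2r5a. For Ppp2r5e these r were 0.45, 0.36 and 0.48. The sixth of genes with the richest windows was set against the mean of the EV no IL-2 libraries. Its median deviation was -0.37 log2 units in 3A10t replicate 2 and -0.11 in EV+IL-2 replicate 2. It was -0.059 to -0.08 in 1G12t replicate 2 and 3A10t replicates 1 and 3. The rest lay between -0.012 and 0.079, among them the EV no IL-2 libraries, which set the reference. The part of GC content in the levels of Ppp2ca, Ppp2r2d and Ppp2r5a was not tested.

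Ppp2r5c, a B56 subunit known to direct PP2A to p53 and to kinetochores, was at 152, 93.5 and 107 TPM in 3A10t replicates 1 to 3. All 3 values were below the 9 values of the other groups, of which the lowest was 158 TPM. The mean was 117 ± 30.4 TPM in 3A10t, against 192 ± 10.4 in EV no IL-2, a log2 fold change of -0.73 with an SE of 0.15. Against 1G12t the log2 fold change was -0.65 and against EV+IL-2 it was -0.62, each with an SE of 0.15, and these contrasts share the 3A10t libraries. Leaving out 3A10t replicate 2 gave -0.59 against EV no IL-2. The low libraries of Ppp2r5c were only in part those of Ppp2ca. 3A10t replicates 1 and 2 were low for both genes, whereas 3A10t replicate 3 was low for Ppp2r5c and high for Ppp2ca. Ppp2r5c was at 185 TPM in EV+IL-2 replicate 2 and at 191 TPM in 1G12t replicate 2, which were low for Ppp2ca.

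Against EV no IL-2, each of the 10 members had a lower mean in 3A10t, Ppp2r2a not without 3A10t replicate 2 or with the trend on transcript length removed, with a median log2 fold change of -0.52, beside 0.026 over all genes. The libraries did not contribute alike. The members' median difference from the EV no IL-2 mean was -0.03 in replicate 1, -0.88 in replicate 2 and -0.18 in replicate 3. All 10 members were below that mean in replicate 2, 8 in replicate 3 and 6 in replicate 1. With the 4 libraries low in Ppp2ca left out, which leaves 3A10t replicate 3 alone in its group, the median was -0.18, with Ppp2ca at 0.07, Ppp2r2d at 0.11 and Ppp2r5c at -0.84. The values of Ppp2ca and Ppp2r2d there follow from how the libraries were picked. Only Ppp2r5c and Ppp2r1a had all 3 libraries below all 3 of EV no IL-2, against 12.1% of all genes, and nothing is read from this count because the contrast chose the family.

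Ppp2r1a, the main scaffold, was at 186, 158 and 172 TPM in 3A10t, a log2 fold change of -0.17 with an SE of 0.079, and its highest 3A10t value all but met the lowest EV no IL-2 value of 186 TPM. Ppp2r1b was at 55.1, 25.8 and 26.7 TPM in 3A10t, so replicate 1 was at the level of the EV libraries and the other 2 were lower. Its log2 fold change was -0.69 with an SE of 0.23, and its r with Ppp2r5c was 0.94 over the 12 libraries. Ppp2ca had the largest mean difference, -1.33 with an SE of 0.57, with 3A10t replicate 3 above the EV no IL-2 mean. Ppp2r2a, at 104, 65.2 and 89.9 TPM, and Ppp2r5d, at 75.5, 49.3 and 71.9 TPM, were lowest in replicate 2, with the other 2 libraries near the EV values.

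Ppp2r1b, Ppp2r5e and the other members except Ppp2r5c were tested between 3A10t and 1G12t, the contrast of the 2 tethered variants. By limma 0 of 9 were called, against 4.27% of all genes, and 2 of 9 had an unadjusted p under 0.05, against 29.7%. The study's cut took 1 of 9, Ppp2r5e, against 12.4% of all genes. The members' median log2 fold change was -0.50, beside -0.017 over all genes, and all 9 values were negative, though those of Ppp2r2a and Ppp2r5d turned positive without 3A10t replicate 2 and with the GC window trend removed, and that of Ppp2r2a with the length trend removed. Ppp2r5e was at 8.43, 4.5 and 6 TPM in 3A10t and at 9.91, 8.75 and 10.5 TPM in 1G12t, without overlap. Nothing is read from this separation, since the share of all genes separated in this way is not given. The log2 fold change of Ppp2r5e was -0.59, with an interval from -0.96 to -0.21 and an adjusted p of 0.064. Ppp2r1b differed by -0.52, from -1.02 to -0.01, with an adjusted p of 0.16. Without 3A10t replicate 1, in which the levels of both were nearest to those of the other groups, limma called Ppp2r1b and Ppp2r5e, 2 of 9, where it called 27.3% of all genes.

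Against EV+IL-2, 0 of 9 members were called by limma in 3A10t, where 23.4% of all genes were. An unadjusted p under 0.05 was reached by 3 of 9, Ppp2r1a, Ppp2r1b and Ppp2r5e, and by 37.1% of all genes, and the study's cut by 0 of 9 and by 22.1%. The median log2 fold change was -0.36, beside 0.000 over all genes, and again all 9 were negative, Ppp2r2a not without 3A10t replicate 2. Ppp2r1b differed by -0.63, from -1.14 to -0.13, with an adjusted p of 0.07. Ppp2r1a differed by -0.19, from -0.37 to -0.02, with an adjusted p of 0.10. Ppp2ca differed by -0.94, from -2.21 to 0.32, with an adjusted p of 0.26. Calls depended on single libraries: without 3A10t replicate 1 Ppp2r1a, Ppp2r1b, Ppp2r5d and Ppp2r5e were called, beside 34.2% of all genes, and without 3A10t replicate 3 Ppp2ca alone was called, at an adjusted p of 0.038, beside 16.9% of all genes.

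3A10t replicate 2 also stood apart by transcript length. The sixth of protein-coding genes with the shortest transcripts was set against the mean of the EV no IL-2 libraries. It deviated by a median of 0.44 log2 units in 3A10t replicate 2, by 0.13 in 3A10t replicate 3 and by -0.094 to 0.1 in the other 10. The sixth with the longest transcripts, of at least 5151 bases, deviated by -0.16 in 3A10t replicate 2 and by -0.082 to 0.2 in the other libraries. The transcripts of Ppp2r5c (1847 bases) and Ppp2r1b (3647 bases) were in neither sixth, the limit of the shortest being 1494 bases. The part of length in their levels was not tested. With the trend on length removed in each library, the log2 fold change of Ppp2r5c against EV no IL-2 was -0.81. The 5 genes most like Ppp2r5c over the 12 libraries were Golga5 (r 0.983), Tent2 (0.983), Sun1 (0.982), Pcid2 (0.981) and Edc4 (0.978). Edc4, an mRNA decapping scaffold, was at 69.5, 33.9 and 38.9 TPM in 3A10t and between 67.3 and 85.4 TPM elsewhere, the same order of the 3 libraries as Ppp2r5c.

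Among genes that act on PP2A, several were called where no subunit was. Of 15 regulators tested, 4 rose in EV+IL-2 against EV no IL-2 and 0 fell by limma, where 8.17% of all genes rose and 5.13% fell. Sgo1, which brings PP2A-B56 to centromeres to protect cohesion, was at 2.62, 2.64 and 2.27 TPM in EV no IL-2 and at 12.2, 9.54 and 9.91 TPM in EV+IL-2, a log2 fold change of 1.71 with an adjusted p of 1e-05. Cip2a, an inhibitor of PP2A, was at 1.17, 0.945 and 1.27 TPM and at 6.09, 4.88 and 4.21 TPM, a log2 fold change of 1.50 with an adjusted p of 0.00026. Mastl, the Greatwall kinase that switches off PP2A-B55 in mitosis through Ensa and Arpp19, was under 1 TPM in EV no IL-2 and at 1.82 to 2.33 TPM in EV+IL-2, a log2 fold change of 1.00 with an adjusted p of 0.006. For each of these, no EV+IL-2 library overlapped EV no IL-2. The fourth was Anp32b, a relative of the PP2A inhibitor Anp32a, which went from 110 to 156 TPM in the group means, a log2 fold change of 0.50 with an adjusted p of 0.00089.

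In both tethered groups these 4 regulators were lower than in EV+IL-2. Of the 15, 0 were called by limma between 1G12t and EV no IL-2, beside 0.0199% of all genes. An unadjusted p under 0.05 was reached there by 1 of the 15, beside 7.04% of all genes. Against EV+IL-2, 6 fell in 1G12t and 0 rose, where 10.9% of all genes fell and 9.69% rose, namely Sgo1 (-1.58), Cip2a (-1.19), Mastl (-0.85), Anp32b (-0.51), Ptpa (-0.44), the PP2A activator, and Set (-0.38), a PP2A inhibitor. In 3A10t 6 were lower than in EV+IL-2 and 0 higher, where 13.0% of all genes were lower and 10.3% higher, namely Cip2a (-1.36), Sgo1 (-1.24), Mastl (-1.01), Anp32b (-0.32), Ptpa (-0.32) and Ensa (-0.25). Adjusted p-values of these calls were between 1.6e-05 and 0.03. Calls were lost under alternatives for 2 of the 6 genes in 1G12t. Set lost its call on the TPM as deposited (adjusted p 0.10), with quantile normalization (0.26), without the 4 libraries low in Ppp2ca (0.12) and without any 1 of EV+IL-2 replicates 1 and 2 and 1G12t replicates 2 and 3, and Ptpa lost it on the TPM as deposited (0.053). In 3A10t, 4 of the 6 lost theirs. Ptpa did so without any single EV+IL-2 library or 3A10t replicate 2, without the 4 libraries (0.26) and with only the 6 libraries compared (0.081). Ensa did so without any single EV+IL-2 library or 3A10t replicate 3, without the 4 libraries (0.051), with quantile normalization (0.05), with the 6 libraries alone (0.063) and with the length trend removed (0.26). Anp32b lost it with the GC window trend removed (0.61) and without the 4 libraries, and Mastl without the 4 libraries (0.053). Cip2a was at 1.68, 1.09 and 1.32 TPM in 3A10t.

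**Figure D5:**
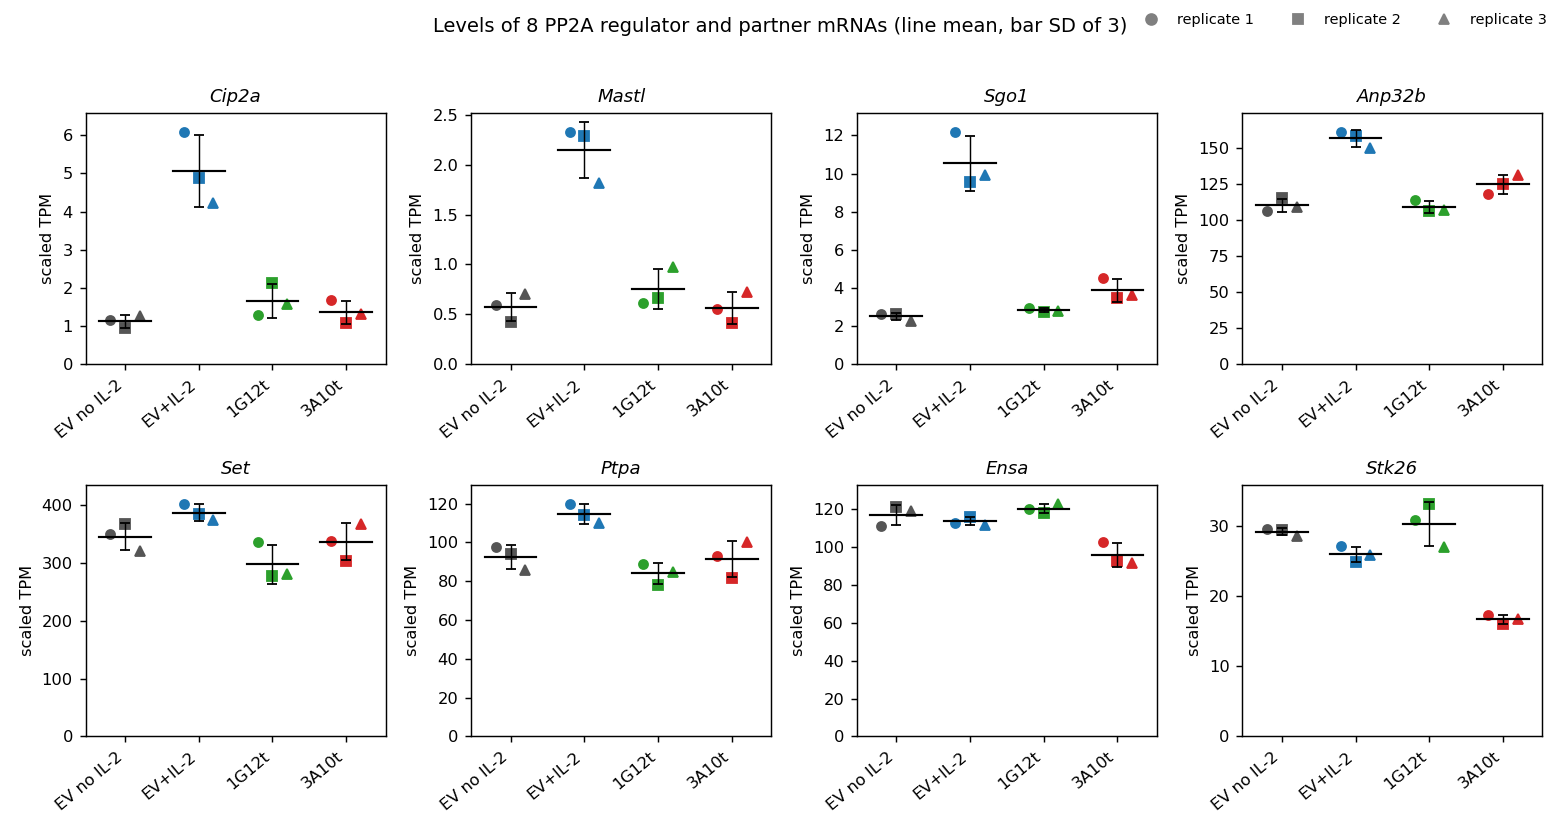
Scaled TPM (linear axis from 0) of 8 PP2A regulators and partners in each library, by group, with marker shapes for replicate number, a line at the mean and a bar for the SD of 3. For Cip2a, Mastl, Sgo1 and Anp32b the EV+IL-2 libraries lay above the other 9, and for Ensa and Stk26 the 3A10t libraries lay below the other 9.

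Between 3A10t and 1G12t, 1 of the 15 regulators fell and 0 rose, where 2.96% of all genes fell and 1.3% rose. Ensa, the substrate of Mastl that binds and blocks PP2A-B55, was at 103, 92.7 and 91.8 TPM in 3A10t and at 120, 118 and 123 TPM in 1G12t, a log2 fold change of -0.33 with an adjusted p of 0.038. This call was lost in 5 of 6 cases with 1 library left out, and with the length trend removed (adjusted p 0.15), the 6 libraries alone (0.28), no filter on low TPM (0.077) or no trend in eBayes (0.055). Of 12 tested members of STRIPAK, the complex in which striatins serve as B subunits, 2 fell and 0 rose, against the same 2.96% and 1.3%. Stk26, a protein kinase of the complex, was at 17.3, 16.1 and 16.7 TPM in 3A10t and at 30.9, 33.2 and 27.0 TPM in 1G12t, a log2 fold change of -0.82 with an adjusted p of 0.0027. It was called without any one of the 6 libraries, but not with those 6 alone in the fit (adjusted p 0.28), where limma called few genes. Slmap, a membrane-anchored STRIPAK subunit, fell by 0.58 on the log2 scale with an adjusted p of 0.033, a call lost without any single 1G12t library, without 3A10t replicate 2 or 3 and under 6 other alternatives.

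Against EV+IL-2, 3 of the 12 STRIPAK genes fell and 0 rose in 3A10t, where 23.4% of all genes were called and 13.0% fell, namely Slmap (-0.68, adjusted p 0.0024), Stk26 (-0.61, adjusted p 0.0007) and the striatin Strn3 (-0.93, adjusted p 0.038). Strn3 lost its call without EV+IL-2 replicate 1 or 3 or 3A10t replicate 2, with quantile normalization and with the 6 libraries alone. The STRIPAK list holds Stk24, which the study named from these samples, so its direction is not independent evidence. Stk24 was at 78.9, 44.2 and 75.8 TPM in 3A10t and between 78.7 and 110 TPM elsewhere, and it was not called in either test. In EV+IL-2 and in 1G12t against EV no IL-2, limma called 0 of the 12, with 1 and 0 at an unadjusted p under 0.05.

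Of the 6 remaining PP2A B subunits, Ppp2r3a, Ppp2r3c, Ppp2r3d and Ppp2r5b were expressed enough to test and Ppp2r2b and Ppp2r2c were not. None of the 4 was called by limma in the 5 tested comparisons, where 0.0199% to 23.4% of all genes were called. An unadjusted p under 0.05 was reached by 1 of the 4 in 1G12t against EV+IL-2, beside 33.2% of all genes. It was reached by 1 of the 4 in 3A10t against 1G12t, beside 29.7%. In the other 3 comparisons it was reached by 0 of the 4, beside 7.04% to 37.1% of all genes. Ppp2r3d, at 51.2 to 65.8 TPM, was the highest of them. Ppp2r5b, the fifth B56 gene, was at 15.8, 14.6 and 14.5 TPM in 3A10t and at 20.1, 19.8 and 18.0 TPM in 1G12t, with a log2 fold change of -0.35 and an adjusted p of 0.057.

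The members lie on 8 chromosomes of the GRCm38 build in the GENCODE annotation. Ppp2ca is at chr11:52098681-52127778 and Ppp2r5c at chr12:110447120-110583062, both on the plus strand. Ppp2r2d is at chr7:138846079-138883057 on the plus strand and Ppp2r5a at chr1:191351975-191403272 on the minus strand. The library kit does not mark strand, so reads from bases shared by overlapping genes cannot be told apart by strand. The overlaps given here are between whole gene ranges, introns included, and whether exons overlap was not checked. Ppp2r1b overlaps Sik2 and the noncoding Gm25558, Ppp2r2d overlaps Mapk1ip1, and Ppp2r5d overlaps Mea1 and the noncoding Gm26904. Ppp2r5c overlaps the noncoding Gm19605. Ppp2ca overlaps 4 noncoding genes, Gm26551, Gm24157, 9430098F02Rik and Mir3061, and Ppp2r5e overlaps Gm47690 and Gm47689. The coding sequences of Ppp2ca and Ppp2cb were 81.7% identical. Of 50-base words, 11.4% of those in Ppp2r5a, 6.31% in Ppp2r2a, 1.64% in Ppp2ca, 1.62% in Ppp2r2d and 0.127% in Ppp2r1a also occurred in transcripts of other genes, and none in the remaining 5 members, so the values of Ppp2r5a are the least certain in this respect.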

How the data were processed

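The authors trimmed reads with cutadapt 1.18, aligned them to mm10 (GRCm38) with STAR 2.5.3 and estimated expression with RSEM 1.3.0, per the labels, and deposited TPM per gene symbol and library. TPM sum to a fixed total, so a few abundant genes shift all others, and read depth is unknown. The authors tested counts with DESeq2, and those counts were not used here.

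Samples were grouped by their labels. TPM were divided by median-of-ratios factors, and 15043 genes with a mean of at least 1 TPM were tested on log2(scaled TPM + 1) with limma 3.58.1 (R 4.3.3; lmFit, eBayes with a trend, 1 mean per group, 12 libraries, two-sided, Benjamini-Hochberg over all genes), checked on simulated data. Members and gene lists were chosen with earlier results of these data known. List genes past the adjusted threshold and the 5 genes most like Ppp2r5c and like the member with the largest change with IL-2 could be named. Per the labels the replicate number marks a shared sort, which pairs samples across groups. Deviations from group means had a mean r of 0.041 (-0.11 to 0.15) in 18 same-number pairs and -0.02 in 36 others. Lengths and GC windows came from GENCODE M21. Alternatives are given in the closing section.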

Additional observations from a re-analysis of the deposited data

How the results depend on the processing

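With 3 cultures a group and no read depth, member differences under the intervals given could not be detected, and pooled mice leave the spread between animals unmeasured. The blocked fit, with replicate number as a block, kept the count of members at 0 in the 5 comparisons tested. It lost 1 call of a list gene, Ppp4r3a in 3A10t against 1G12t (adjusted p 0.054). The alternatives that remove the GC window trend or leave out the 4 libraries with Ppp2ca under 30 TPM were chosen after seeing the data, and the causes of the changes below were not tested. Leaving out the 4 leaves 3A10t with replicate 3 alone, assumed to vary like the other groups, and since they were picked by Ppp2ca, its changes and those of Ppp2r2d and Ppp2r5a there follow from the choice. Of 48 tested member differences, 23 changed sign under some alternative, none of them called as reported, and of 33 calls of list genes 20 were lost under at least 1 alternative and 13 under none. The TPM as deposited moved the median of all genes to -0.18 in 3A10t against 1G12t and to 0.11 in 1G12t against EV+IL-2.

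The count of members called was 0 in each comparison. In 1G12t against EV+IL-2 it became 1 of 10 (Ppp2r5d) with only the 6 libraries compared, where 22.8% of all genes were called. In 3A10t against 1G12t it became 1 of 9 on the TPM as deposited (Ppp2r5e), where 9.28% of all genes were called. With single libraries left out it was 0 to 2 of 9, with 2 without 3A10t replicate 1, where 27.3% of all genes were called. For 3A10t against EV+IL-2 it became 1 of 9 with the length trend removed (Ppp2r1a), beside 25.3% of all genes. With this trend removed and the replicate block it became 2 of 9 (Ppp2cb, Ppp2r1a), beside 26.6%. With single libraries left out it was 0 to 4 of 9, with 4 without 3A10t replicate 1, beside 34.2%, and 1 without replicate 3, beside 16.9%. No count is given for 3A10t without the 4 libraries, since 1 library is then left in that group. Over all genes, the number called ran from 1243 to 3209 (2001 as reported) in EV+IL-2 and from 2 to 25 (3) in 1G12t against EV no IL-2. It ran from 13 to 4105 (642) in 3A10t against 1G12t, from 1923 to 14842 (3099) in 1G12t and from 1889 to 15888 (3513) in 3A10t against EV+IL-2, both highest without the filter on low TPM.

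Signs of uncalled log2 fold changes turned as follows. In EV+IL-2 against EV no IL-2, single libraries left out gave Ppp2ca -0.60 to 0.035, Ppp2cb -0.079 to 0.18, Ppp2r1a -0.001 to 0.055, Ppp2r1b -0.11 to 0.026, Ppp2r2a -0.05 to 0.035, Ppp2r2d -0.56 to 0.33 and Ppp2r5e -0.019 to 0.11. The TPM as deposited gave Ppp2cb -0.0073, Ppp2r1a -0.038 and Ppp2r5e -0.014, quantile normalization gave Ppp2cb -0.02, Ppp2r1a -0.063 and Ppp2r5e -0.017, removal of the length trend, with or without the block, gave Ppp2r2a 0.024, and leaving out the 4 libraries gave Ppp2ca 0.035 and Ppp2r2d 0.33. In 1G12t against EV no IL-2, single libraries left out gave Ppp2cb -0.10 to 0.40, Ppp2r2d -0.75 to 0.049 and Ppp2r5a -0.31 to 0.15, and without the 4 libraries Ppp2r2d was 0.049 and Ppp2r5a 0.15. In 1G12t against EV+IL-2, single libraries left out gave Ppp2ca -0.54 to 0.31, Ppp2cb -0.14 to 0.36, Ppp2r2d -0.79 to 0.31, Ppp2r5a -0.08 to 0.50 and Ppp2r5c -0.045 to 0.084, the GC window trend removed, with or without the block, gave Ppp2cb -0.043, and quantile normalization gave Ppp2r1a 0.051 and Ppp2r2a 0.0089. In 3A10t against 1G12t, single libraries left out gave Ppp2r2a -0.19 to 0.14 and Ppp2r5d -0.23 to 0.07, the GC window trend removed, with or without the block, gave 0.058 and 0.019, and without the 4 libraries Ppp2ca was 0.14, Ppp2r2a 0.077, Ppp2r2d 0.06 and Ppp2r5d 0.026. There, Ppp2r2a was 0.15 with the length trend removed, with or without the block. In 3A10t against EV+IL-2, single libraries left out gave Ppp2r2a -0.31 to 0.021, and without the 4 libraries Ppp2ca was 0.032. In 3A10t against EV no IL-2, described without a test, Ppp2r2a was 0.011 without 3A10t replicate 2 and 0.021 with the length trend removed, and without the 4 libraries Ppp2ca was 0.07 and Ppp2r2d 0.11.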

Other observations

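The related phosphatases PP4 and PP6, which share the fold of the PP2A catalytic subunit but have their own regulators, were described in the same comparisons. By limma, 0 of 9 tested PP4 and PP6 genes were called in EV+IL-2 against EV no IL-2, beside 13.3% of all genes. An unadjusted p under 0.05 was reached by 0 of the 9, beside 26.3% of all genes. In 1G12t against EV+IL-2, 1 rose and 0 fell, where 9.69% of all genes rose, the PP6 subunit Ppp6r2 (0.40, adjusted p 0.033), a call lost without any single EV+IL-2 library, 1G12t replicate 2 or 3 or the 4 libraries low in Ppp2ca, and with the 6 libraries alone. In 3A10t against 1G12t, 2 fell and 0 rose, where 2.96% of all genes fell, the substrate-binding subunits Ppp4r3a (log2 fold change -0.74, adjusted p 0.047) and Ppp6r3 (-0.70, adjusted p 0.045). Ppp4r3a was at 35.4, 19.2 and 23.5 TPM in 3A10t and at 39.4, 44.7 and 44.8 TPM in 1G12t, with replicate 1 again the nearest, and both calls were lost without any single 1G12t library, without 3A10t replicate 2 or 3, without the 4 libraries and with the length trend removed. Of 20 alternatives, 5 kept the call of Ppp4r3a and 6 that of Ppp6r3. Against EV+IL-2, 3 fell and 0 rose in 3A10t, Ppp4r1 (-0.59), Ppp4r3a (-0.69) and Ppp6r3 (-0.64), with adjusted p-values of 0.024, 0.019 and 0.018, where 23.4% of all genes were called and 13.0% fell. All 3 calls were lost on leaving out replicate 1 or 3 of EV+IL-2, or replicate 2 or 3 of 3A10t. That of Ppp4r1 was lost on leaving out EV+IL-2 replicate 2 too, and with quantile normalization. The calls of Ppp4r1 and Ppp4r3a were also lost with the 6 libraries alone, and that of Ppp6r3 without the 4 libraries. The catalytic subunits Ppp4c, at 356 to 442 TPM, and Ppp6c, at 60.9 to 70.8 TPM, were not called in any tested comparison. Ppp6r1, named after its values were seen, was at 3.72 to 11 TPM in the 4 libraries low in Ppp2ca and at 14.1 to 25.7 TPM in the other 8.

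Among the other catalytic subunits of the family, Ppp5c, a phosphatase of heat shock protein complexes, followed IL-2 in the medium. It was at 106, 103 and 96.5 TPM in EV no IL-2 and at 128, 137 and 125 TPM in EV+IL-2, a log2 fold change of 0.35 with an adjusted p of 0.015. It was lower than in EV+IL-2 by 0.48 on the log2 scale in 1G12t and by 0.37 in 3A10t, with adjusted p-values of 0.0023 and 0.0085. The call against EV no IL-2 was lost without EV no IL-2 replicate 3, EV+IL-2 replicate 2 or the 4 libraries low in Ppp2ca. The call in 3A10t was lost without those 4 libraries, which leaves 1 library in that group. Ppp1cb, a catalytic subunit of PP1, fell by 0.80 on the log2 scale in 3A10t against 1G12t (adjusted p 0.045). Of 20 alternatives, 9 kept this call. It was lost without any single 1G12t library or 3A10t replicate 2 or 3. It was also lost with no filter on low TPM, the 6 libraries alone, no trend in eBayes and the length trend removed. Removing the GC window trend without the block lost it too. The calcineurin subunit Ppp3cc fell by 0.70 in 3A10t against EV+IL-2 (adjusted p 0.015). That call was lost without EV+IL-2 replicate 1 and with the 6 libraries alone.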
